A study of Mus musculus with 8 samples.

Results

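The immediate early response genes described here are Fos, Jun, Junb and Atf3, which code for bZIP transcription factors, the zinc finger factor Egr1, and Zfp36, Dusp1, Btg2, Ier2 and Ier3. They were chosen by name, with earlier results of these data known, as all probe sets whose platform annotation gave 1 of these 10 symbols. That gave 12 of the 45037 probe sets of the array (controls left out), with a pair of probe sets each for Jun and Btg2. All 12 passed the filter on dim signals, as did 24751 probe sets in all. Immediate early genes are the genes a cell switches on within minutes of a stimulus, from factors already present and without new protein synthesis. Kinase cascades act on factors such as SRF, ELK1 and CREB at their promoters, and their short-lived messages code for transcription factors and for brakes on the same signals. In the heart they are known to respond to stretch, ischaemia and adrenergic drive, and also to the handling of tissue before it is frozen.

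The samples were whole hearts of male mice aged 6 to 8 weeks, on 8 Affymetrix arrays. Mice labelled MT-/- (null for metallothionein I and II, the zinc-binding products of Mt1 and Mt2) and wild-type MT+/+ mice were given 1 intraperitoneal injection of doxorubicin (DOX, an anthracycline cancer drug with heart toxicity) at 15 mg/kg, or saline. Hearts were taken on day 4. The 4 groups, MT-/- DOX, MT-/- saline, MT+/+ DOX and MT+/+ saline, held 2 arrays each, called replicate 1 and replicate 2 after the labels. The labels call the replicates biological, without saying whether each array is 1 animal, and the p-values measure the spread between these samples only.

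The heart genes Myh6 and Tnnt2 gave deposited signals of 12296 to 16569 on the 8 arrays, at or above percentile 99.9 of each array. The genotype label was not borne out by a lower signal of its target genes: Mt1 read 12549 and 12850 in MT-/- DOX hearts, 4667 and 5322 in MT-/- saline hearts, 6735 and 9285 in MT+/+ DOX hearts, and 3722 and 4034 in MT+/+ saline hearts. Mt2 read 2218 and 2213 in MT-/- DOX hearts, 968 and 1018 in MT-/- saline hearts, 1210 and 2732 in MT+/+ DOX hearts, and 452 and 485 in MT+/+ saline hearts. Where these probes lie relative to the altered part of the genes was not analysed here, so the genotypes are called by their labels. Array medians of the deposited signal lay between 80.1 and 87.5. In whole-heart RNA, fewer cells of a type and less RNA per cell cannot be told apart.

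The promoters of Fos, Junb, Dusp1, Zfp36 and Btg2 are shown first, because immediate early genes are known for the response elements in such promoters. Those of Jun, Atf3 and Ier3 were searched as well but are not printed. Jun and Ier3 held neither of the elements marked below. The sequences are the 250 bases before the annotated start of transcription, from RefSeq on GRCm38.p6, in the direction of transcription. The search covered 8 of the 10 members. Egr1 and Ier2 were left out of it, so the counts of matches below say nothing of their promoters. Capitals mark TGACG or its complement (the core of the CREB and ATF response element, CRE), and in Zfp36 the CArG box (the site of SRF), both searched on both strands. Fos lies at chr12:85473640-85473889 (plus strand), Junb at chr8:84978749-84978998 (minus strand), Dusp1 at chr17:26508473-26508722 (minus strand), Zfp36 at chr7:28379229-28379478 (minus strand) and Btg2 at chr1:134079156-134079405 (minus strand).
Fos: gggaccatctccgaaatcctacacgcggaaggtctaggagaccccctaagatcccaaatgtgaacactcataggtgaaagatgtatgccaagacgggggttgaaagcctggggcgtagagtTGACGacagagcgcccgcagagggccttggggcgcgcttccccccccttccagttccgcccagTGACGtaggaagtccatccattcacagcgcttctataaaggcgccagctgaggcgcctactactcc
Junb: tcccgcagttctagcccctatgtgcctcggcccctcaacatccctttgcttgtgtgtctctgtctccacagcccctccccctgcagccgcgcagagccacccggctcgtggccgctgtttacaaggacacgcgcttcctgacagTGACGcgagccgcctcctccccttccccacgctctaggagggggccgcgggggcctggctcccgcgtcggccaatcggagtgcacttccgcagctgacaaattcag
Dusp1: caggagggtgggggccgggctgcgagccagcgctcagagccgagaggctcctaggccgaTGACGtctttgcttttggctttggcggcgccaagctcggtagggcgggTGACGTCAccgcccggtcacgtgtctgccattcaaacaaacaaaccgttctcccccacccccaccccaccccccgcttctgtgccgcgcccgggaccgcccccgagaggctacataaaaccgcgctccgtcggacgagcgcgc
Zfp36: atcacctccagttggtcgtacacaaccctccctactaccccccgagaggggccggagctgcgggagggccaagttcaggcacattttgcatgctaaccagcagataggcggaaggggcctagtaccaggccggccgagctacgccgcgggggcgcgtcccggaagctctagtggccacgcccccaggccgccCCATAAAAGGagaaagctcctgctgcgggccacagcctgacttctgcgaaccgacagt
Btg2: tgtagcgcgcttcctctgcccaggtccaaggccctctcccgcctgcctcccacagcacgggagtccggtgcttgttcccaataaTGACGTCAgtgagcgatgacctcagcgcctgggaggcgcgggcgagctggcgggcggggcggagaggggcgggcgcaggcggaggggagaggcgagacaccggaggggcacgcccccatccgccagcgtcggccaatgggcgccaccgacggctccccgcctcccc

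The core TGACG was found in 5 of the 8 promoters, against 17.8% of the 32851 RefSeq promoters searched over the same length. Counted from the start site, Fos held it at -129 to -125 and at -66 to -62, Junb at -106 to -102, and Atf3 at -7 to -3 on the other strand. The full palindrome TGACGTCA, which contains the core on both strands, was found in 2 of 8 promoters, Btg2 at -166 to -159 and Dusp1 at -143 to -136, against 1.55% of all promoters. Dusp1 held a further core at -191 to -187. The CArG box was found in 1 of 8, Zfp36 at -58 to -49, against 1.47%, and overlapped a GC box match at -63 to -58. The AP-1 site TGANTCA was found in 0 of 8, against 6.75%, the GC box GGGCGG in 7 of 8, against 32.7%, and TATAAA in 1 of 8, Fos at -33 to -28, against 12.4%. A match says only that these letters stand in this window. The lack of a match, as for the CArG box in Fos, says nothing of sites outside these 250 bases.

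One array stood apart for these genes and is described before the treatment. On MT-/- saline replicate 2, Fos had a deposited signal of 1045, against 65.5 on the other array of that group. Egr1 had 1811 there, against 193 on its partner array, and Junb had 789, against 152. These were the highest signals of the 8 arrays for all 3 genes, and no other array came near the Fos and Egr1 values. On the normalized scale, log2(intensity + 16), the gap to the next array was 2.24 for Fos, 2.57 for Egr1 and 0.84 for Junb.

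**Figure D1:**
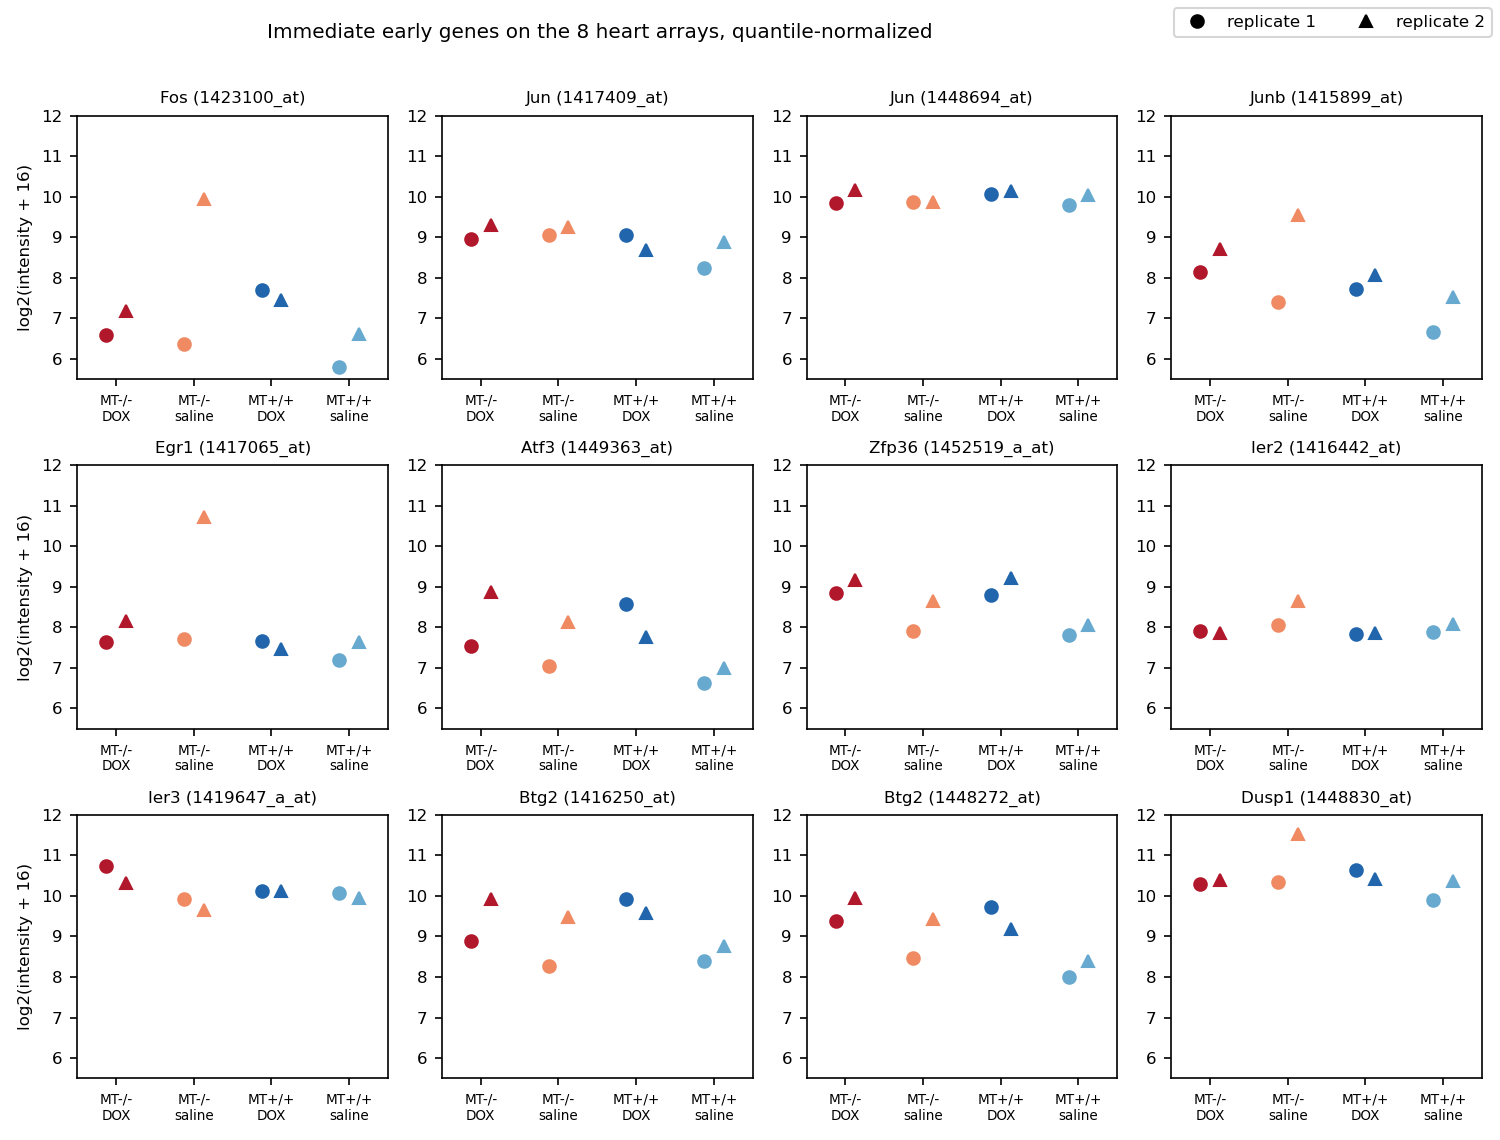
Normalized log2(intensity + 16) of the 12 probe sets on the 8 arrays, 1 panel per probe set with the same vertical axis. Circles are replicate 1 and triangles replicate 2. The MT-/- saline triangle stands far above the rest for Fos and Egr1, while both Zfp36 DOX pairs lie above all saline arrays.

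Among all 24751 probe sets ranked by the difference of replicate 2 minus replicate 1 in the MT-/- saline pair, Fos was at place 1 with 3.58 log2, Egr1 at place 2 with 2.99 and Junb at place 9 with 2.15. Btg2 (1.20, place 23), Dusp1 (1.19, place 25) and Atf3 (1.08, place 34) also differed by more than 1 log2 unit. So 6 of the 10 members exceeded 1 log2 unit there, against 0.178% of all probe sets. The members were chosen with earlier results of these data known, so this count describes the pair and tests nothing. The same count was 2 of 10 in the MT-/- DOX pair (Atf3 1.32 and Btg2 1.03), against 0.477% of all probe sets. It was 0 of 10 in the MT+/+ DOX pair, against 0.170%, and 0 of 10 in the MT+/+ saline pair, against 0.194%. Jun differed by 0.00 and Ier3 by -0.27 in the MT-/- saline pair.

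**Figure D2:**
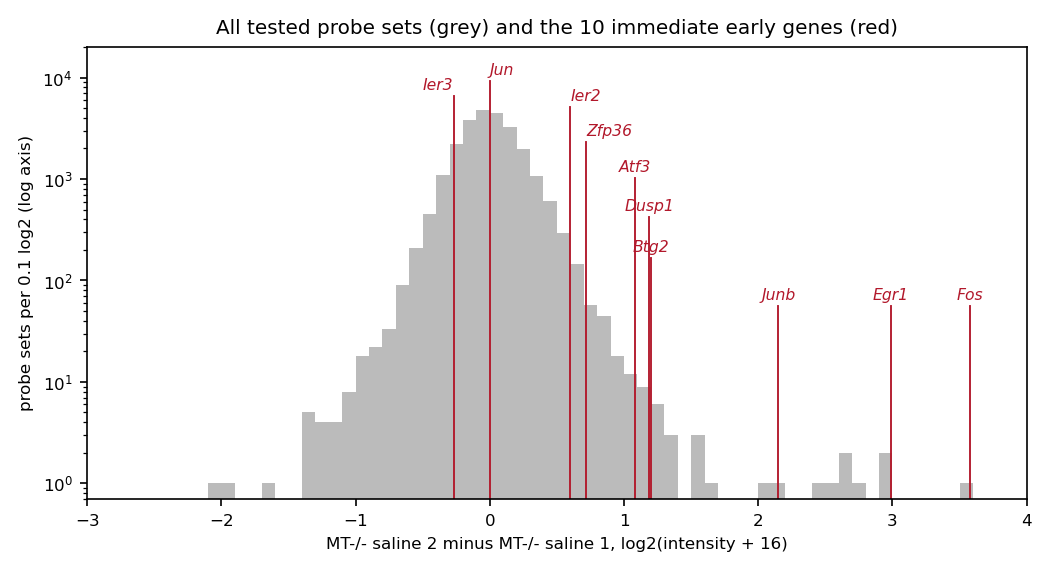
Histogram of the difference MT-/- saline replicate 2 minus replicate 1, in log2(intensity + 16), over all tested probe sets (grey bars, number of probe sets per bin of 0.1 log2 on a log axis), with the 10 genes as red lines whose height has no meaning. Fos, Egr1 and Junb lie at 3.58, 2.99 and 2.15, among the 9 highest of 24751, while Jun and Ier3 lie in the bulk.

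The other places among the top 10 of that pair were named after their values were seen. They were 3 probe sets of Hspa1b and 1 of Hspa1a, near-identical genes for the inducible heat shock protein HSP70 that these probes may not separate, the nuclear receptor gene Nr4a1 (itself an immediate early gene), a dim probe set of the pericyte gene Rgs5 (870 and 124), and Anp32a. The bright Rgs5 probe set had 6610 and 4636 there and was also higher on replicate 2 in the other 3 groups. Nr4a1 had 2105 on MT-/- saline replicate 2 and 297 on its partner. The brightest of the Hspa1b probe sets had 798 and 120 in the same order. Anp32a was among the top 10 in all 4 pairs and so did not set this array apart. Hspa1b also read higher on MT+/+ saline replicate 2, at 276, than on MT+/+ saline replicate 1, at 83.6, and lay between 72.4 and 124 on the 4 DOX arrays.

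By its correlation over all genes MT-/- saline replicate 2 did not stand apart: it correlated at 0.984 with its partner array, and other pairs of a group at 0.976 to 0.980. It was the highest of the 8 arrays for 5 of the 10 members (Fos, Junb, Egr1, Ier2 and Dusp1), against 10.5% of all probe sets. Its beta-actin 3' to 5' signal ratio, a measure of RNA and labelling quality, was 1.23, against 1.14 on its partner and 0.913 to 1.24 over all arrays. The summed deposited signal of 6 tested smooth muscle and pericyte markers was 13968 on it and 10728 on its partner. The 8 fibroblast markers summed to 20140 and 17074, the 8 macrophage markers to 10421 and 8548, the 8 endothelial markers to 6218 and 5805, and the 8 cardiomyocyte markers to 117501 and 115843. For all of these but the macrophage sum, and for the red cell sum (1475 and 1099), it was the highest of the 8 arrays, as it was for the trimmed mean of all signals (186, against 175 on its partner). The neutrophil sum was the lowest of the 8 arrays on it (980, against 1013 on its partner). The adipocyte sum (180) and the lymphocyte sum (87) were higher on MT+/+ saline replicate 1, at 187 and 108. The part of these values in the signals of Fos, Egr1 and Junb was not tested.

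The question of the treatment comparison is how the hearts differed 4 days after DOX. Averaged over genotypes, 2 of the 10 members rose, Zfp36 and Ier3, and 0 fell (limma, Benjamini-Hochberg adjusted p under 0.05 over all probe sets). In this comparison 7.03% of all probe sets were called higher and 13.9% were called in either direction. The members' median difference was 0.27 log2, against -0.01 over all genes. With the replicate number as a block, 4 members were called higher (Atf3 and Btg2 in addition), against 27.1% of all probe sets. The fit without MT-/- saline replicate 2 called 3 members higher (Fos, Zfp36 and Btg2), against 8.03%. The values of Fos, Egr1, Junb and Dusp1 below depend on the MT-/- saline arrays, so a value is also given without MT-/- saline replicate 2 where that moved it.

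**Figure D3:**
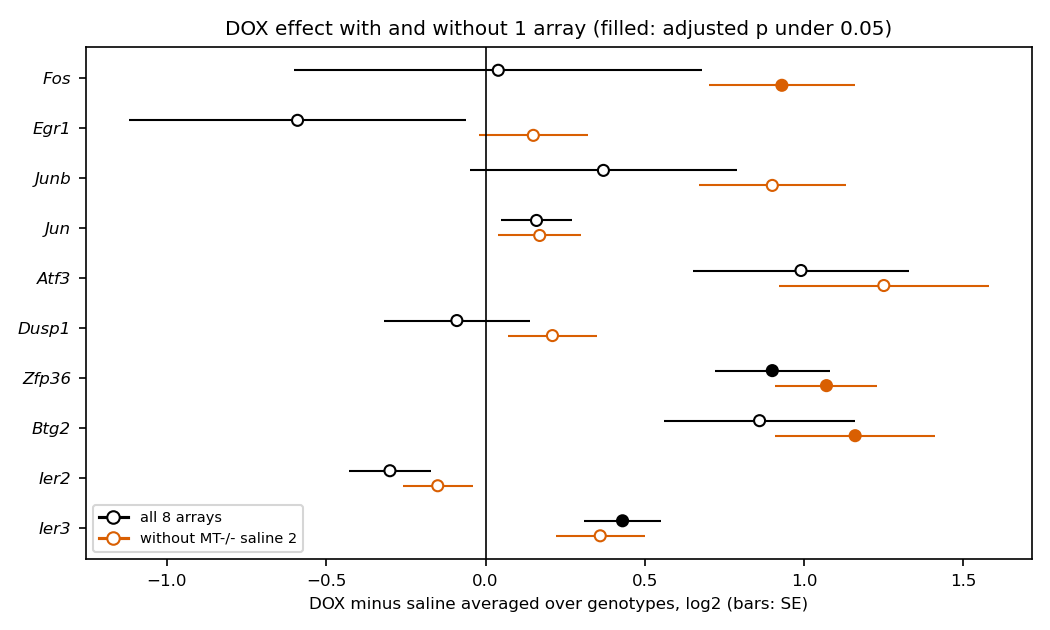
DOX minus saline averaged over genotypes, in log2(intensity + 16), for the 10 genes, with bars for the standard error of the limma fit, from all 8 arrays (black) and without MT-/- saline replicate 2 (orange). Filled points have adjusted p under 0.05. Fos and Egr1 shift most, to 0.93 and 0.15 from 0.04 and -0.59, while Zfp36 lies at 1.07 and 0.90. Without replicate 1 of that group, which is not drawn, Fos was at -0.85 and Egr1 at -1.34.

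Fos codes for the partner of Jun proteins in the AP-1 complex. It had deposited signals of 77.5 and 127 in MT-/- DOX hearts, against 65.5 and 1045 in MT-/- saline hearts. In MT+/+ DOX hearts it had 189 and 159, against 41.7 and 82.9 in MT+/+ saline hearts. The MT+/+ arrays did not overlap between treatments and the MT-/- arrays did. The averaged difference was 0.04 ± 0.64 log2 (SE, adjusted p 0.98 by limma), with -1.28 ± 0.90 in MT-/- (adjusted p 0.509) and 1.36 ± 0.90 in MT+/+ (adjusted p 0.52). Without MT-/- saline replicate 2 Fos rose by 0.93 ± 0.23 on average (1.90-fold, adjusted p 0.0455), and the MT-/- value became 0.51 ± 0.35 (adjusted p 0.565). Leaving out the other array of that pair gave -0.85 on average (adjusted p 0.0655), so the sign of the Fos value also rested on which of the 2 was kept.

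Junb and Jun code for the AP-1 partners of Fos. Junb had 265 and 418 in MT-/- DOX hearts, against 152 and 789 in MT-/- saline hearts, and 192 and 254 in MT+/+ DOX hearts, against 91.0 and 164 in MT+/+ saline hearts. Its arrays overlapped between treatments in MT-/- and not in MT+/+. The averaged difference was 0.37 ± 0.42 log2 (adjusted p 0.643 by limma), and 0.90 ± 0.23 without MT-/- saline replicate 2 (adjusted p 0.0552). Jun, read by the brighter of its pair of probe sets, had 902 and 1193 in MT-/- DOX hearts, against 914 and 998 in MT-/- saline hearts, and 1052 and 1139 in MT+/+ DOX hearts, against 811 and 984 in MT+/+ saline hearts. It was the steadiest member, with a range of 0.38 log2 over the 8 arrays and an averaged difference of 0.16 ± 0.11 (adjusted p 0.387). Its dimmer probe set ranged over 1.07 log2, with 0.15 ± 0.17 (adjusted p 0.655).

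Atf3 codes for a stress-induced bZIP factor that mostly represses its targets. It had 170 and 470 in MT-/- DOX hearts, against 115 and 280 in MT-/- saline hearts, and 362 and 206 in MT+/+ DOX hearts, against 87.1 and 112 in MT+/+ saline hearts. Every DOX array lay above its own genotype's saline array of the same number, but 1 MT-/- saline array lay above an MT+/+ DOX and an MT-/- DOX array. The averaged difference of 0.99 ± 0.34 log2 (1.99-fold) had an adjusted p of 0.0901 by limma, or 0.0287 with the replicate block. Over the 8 fits without 1 array it ran from 0.66 (without MT-/- DOX replicate 2, adjusted p 0.236) to 1.32 (without MT-/- DOX replicate 1, adjusted p 0.022), and only the last was called, with adjusted p up to 0.263 in the others. The value was 0.62 ± 0.48 in MT-/- (adjusted p 0.547) and 1.36 ± 0.48 in MT+/+ (adjusted p 0.19).

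Egr1 codes for a zinc finger factor that relays growth signals. It had 181 and 273 in MT-/- DOX hearts, against 193 and 1811 in MT-/- saline hearts, and 184 and 162 in MT+/+ DOX hearts, against 136 and 178 in MT+/+ saline hearts. Apart from MT-/- saline replicate 2, all its signals lay between 136 and 273. The averaged difference was -0.59 ± 0.53 log2 (adjusted p 0.544 by limma), and 0.15 ± 0.17 without that array (adjusted p 0.651). Leaving out the other MT-/- saline array instead gave a fall, -1.34 ± 0.17 (adjusted p 0.00508), so the sign of the Egr1 value rested on which of this pair was kept.

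Zfp36 codes for tristetraprolin, which binds AU-rich messages and speeds their decay. It had 441 and 583 in MT-/- DOX hearts, against 224 and 412 in MT-/- saline hearts. In MT+/+ DOX hearts it had 418 and 580, against 209 and 241 in MT+/+ saline hearts. All 4 DOX arrays lay above all 4 saline arrays, a separation seen upward in 2 of 10 members (the other being Ier3), against 9.61% of all probe sets. Zfp36 rose by 0.90 ± 0.18 log2 on average (1.87-fold, adjusted p 0.0123 by limma). The normalized means were 9.02 ± 0.22 in MT-/- DOX, 8.28 ± 0.51 in MT-/- saline, 9.0 ± 0.30 in MT+/+ DOX and 7.94 ± 0.16 in MT+/+ saline (SD, n = 2 each). The call was made in each of the 8 fits that left out 1 array, at 0.72 to 1.07 log2 and adjusted p 0.0077 to 0.0479. Within a genotype Zfp36 differed by 0.74 ± 0.25 in MT-/- (adjusted p 0.133, or 0.00618 with the replicate block) and by 1.06 ± 0.25 in MT+/+ (adjusted p 0.0685, or 0.00213 with the block).

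Btg2 codes for an antiproliferative protein and is a known target of p53. The probe set brighter on average had 453 and 1011 in MT-/- DOX hearts, against 288 and 747 in MT-/- saline hearts, and 951 and 763 in MT+/+ DOX hearts, against 308 and 407 in MT+/+ saline hearts. The MT+/+ arrays separated by treatment and the MT-/- arrays did not. The averaged difference of 0.86 ± 0.30 log2 (1.82-fold) had an adjusted p of 0.0937 by limma and 0.0164 with the replicate block. Over the 8 fits without 1 array it ran from 0.56 (without MT-/- saline replicate 1, adjusted p 0.256) to 1.16 (without MT-/- saline replicate 2, adjusted p 0.033). It was called in 2 of these, the other being that without MT-/- DOX replicate 1 (adjusted p 0.0327). Its other probe set had 640 and 1030 in MT-/- DOX hearts, against 339 and 731 in MT-/- saline hearts, and 818 and 570 in MT+/+ DOX hearts, against 240 and 307 in MT+/+ saline hearts. This probe set rose by 0.98 ± 0.24 log2 (1.97-fold, adjusted p 0.0271), so the pair agreed in direction and differed in the call.

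Ier3 codes for a small regulator of cell survival. It had 1721 and 1337 in MT-/- DOX hearts, against 943 and 842 in MT-/- saline hearts, and 1103 and 1114 in MT+/+ DOX hearts, against 986 and 921 in MT+/+ saline hearts. The DOX arrays did not overlap the saline arrays, and the MT-/- DOX arrays were the highest. Ier3 rose by 0.43 ± 0.12 log2 on average (1.35-fold, adjusted p 0.0451 by limma). It was called in 1 of the 8 fits without 1 array, that without MT-/- DOX replicate 2, and adjusted p reached 0.156 in the others. It rose by 0.75 ± 0.17 in MT-/- (1.68-fold, adjusted p 0.0369), with the call lost in 7 of 8 such fits (adjusted p up to 0.227), and differed by 0.12 ± 0.17 in MT+/+ (adjusted p 0.805). The test of the difference between the genotypes, the interaction, gave 0.63 ± 0.24 with an unadjusted p of 0.0276 and an adjusted p of 1.

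Dusp1 codes for a phosphatase that switches off MAP kinases, and Ier2 for a nuclear protein of little-known action. Dusp1 had 1237 and 1410 in MT-/- DOX hearts, against 1261 and 3064 in MT-/- saline hearts, and 1578 and 1379 in MT+/+ DOX hearts, against 878 and 1235 in MT+/+ saline hearts. The MT-/- saline group held both the highest signal and one within the range of the DOX arrays. The averaged difference was -0.09 ± 0.23 log2 (adjusted p 0.86 by limma), and 0.21 ± 0.14 without MT-/- saline replicate 2 (adjusted p 0.454). Ier2 had 222 and 221 in MT-/- DOX hearts, against 246 and 415 in MT-/- saline hearts, and 209 and 221 in MT+/+ DOX hearts, against 219 and 247 in MT+/+ saline hearts. Its averaged difference was -0.30 ± 0.13 (adjusted p 0.193), and -0.15 ± 0.11 without that array (adjusted p 0.479).

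Within MT-/-, 1 member was called after DOX (Ier3, higher), against 6.21% of all probe sets. The arrays of 2 members lay wholly higher under DOX (Zfp36 and Ier3) and of 1 wholly lower (Ier2), against 49.3% of all probe sets without overlap in either direction. The members' median was 0.04 log2, against 0 over all genes. Without MT-/- saline replicate 2, 0 members were called, against 1.58% of probe sets. Leaving out replicate 1 of that group instead gave -3.06 for Fos, -2.83 for Egr1 and -1.19 for Dusp1. Within MT+/+, 0 of 10 members were called by limma, against 2.48% of all probe sets, and 3 had an unadjusted p under 0.05. With the replicate block 2 were called (Zfp36 and Btg2), against 11.1%. The MT+/+ DOX arrays lay wholly above the MT+/+ saline arrays for 8 members (Fos, Jun, Junb, Atf3, Zfp36, Ier3, Btg2 and Dusp1), against 22.4% of all probe sets. On the normalized scale they lay wholly below for Ier2, against 22.3%, and overlapped for Egr1; in either direction 44.7% of all probe sets did not overlap. The members' median was 0.60 log2 in MT+/+, against -0.02 over all genes. MT+/+ saline replicate 1 was the lowest of the 8 arrays for Fos, Jun, Junb, Egr1, Atf3, Zfp36 and Dusp1. The MT+/+ difference without it was 0.96 for Fos, 0.37 for Junb, 0.07 for Jun and 0.18 for Dusp1. Without replicate 2 of that group it was 1.77, 1.23, 0.32 and 0.64 in the same order. Jun separated narrowly, with normalized values of 10.06 on MT+/+ DOX replicate 1 and 10.04 on MT+/+ saline replicate 2.

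For the interaction of genotype with DOX, 0 of 10 members and 0% of probe sets were called by limma, and 1 member, Ier3, had an unadjusted p under 0.05. The values were -2.63 ± 1.27 for Fos, -1.47 ± 1.06 for Egr1, -1.0 ± 0.47 for Dusp1 and -0.84 ± 0.83 for Junb, each with adjusted p 1. Without MT-/- saline replicate 2 they were -0.84 for Fos, 0.02 for Egr1, -0.41 for Dusp1 and 0.23 for Junb. Without replicate 1 of that group instead they were -4.42 for Fos, -2.97 for Egr1, -1.60 for Dusp1 and -1.91 for Junb. The size of these values thus rested on which array of that pair was kept. A difference between the genotypes in the DOX response of these genes was therefore not shown.

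Between genotypes no member was called in any of the 3 comparisons by limma with all arrays. Averaged over treatments 0 of 10 were called, against 0.905% of all probe sets, and 1 (Junb) had an unadjusted p under 0.05. MT-/- minus MT+/+ was 0.96 ± 0.42 log2 for Junb (adjusted p 0.379), 1.07 ± 0.53 for Egr1 (adjusted p 0.446) and 0.62 ± 0.64 for Fos (adjusted p 0.727). Without MT-/- saline replicate 1 the averaged values were 1.82 for Egr1 and 1.52 for Fos. Under saline 0 were called, against 0.186%, and 3 (Egr1, Junb and Dusp1) had an unadjusted p under 0.05. The saline values were 1.94 ± 0.90 for Fos (adjusted p 0.594), 1.80 ± 0.75 for Egr1 (adjusted p 0.558), 1.38 ± 0.59 for Junb (adjusted p 0.572) and 0.81 ± 0.33 for Dusp1 (adjusted p 0.558). Normalized values of the MT-/- saline arrays lay wholly above those of the MT+/+ saline arrays for Egr1 and Atf3. They lay wholly below for Ier3, against 41.4% of all probe sets without overlap in either direction. The deposited signals of Ier3 overlapped between the saline groups. Without MT-/- saline replicate 2 the values were 0.15 for Fos, 0.30 for Egr1, 0.30 for Junb and 0.21 for Dusp1, and 0 members were called, against 0.0815%. Without replicate 1 of that group instead, Fos (3.73, adjusted p 0.0147) and Egr1 (3.30, adjusted p 0.00993) were called, against 0.0653% of probe sets. Under DOX 0 were called, against 0.283%, and 1 (Ier3, 0.41 ± 0.17, adjusted p 0.644) had an unadjusted p under 0.05. On the normalized scale the MT-/- DOX arrays lay wholly above the MT+/+ DOX arrays for Junb, Ier2 and Ier3 and wholly below for Fos and Dusp1, against 33.3% of all probe sets without overlap. The deposited signals of Dusp1 and of Ier2 overlapped between these groups.

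The arrays were also split by replicate number, since the labels number the arrays 1 and 2 in each group without saying what a number shares. Junb and Zfp36, 2 of the 10 members, were higher on the replicate 2 arrays, against 14.6% of all probe sets called in either direction and 7.87% called higher. The members' median was 0.46 log2, against 0 over all genes. Junb was higher on replicate 2 in each of the 4 groups, by 0.57 in MT-/- DOX, 2.15 in MT-/- saline, 0.32 in MT+/+ DOX and 0.86 in MT+/+ saline, and by 0.98 ± 0.24 on average (adjusted p 0.0309 by limma). Zfp36 was higher by 0.32, 0.72, 0.42 and 0.23 in the same groups, and by 0.42 ± 0.09 on average (adjusted p 0.0226). Of all probe sets, 19.2% were higher on replicate 2 in all 4 groups.

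**Figure D4:**
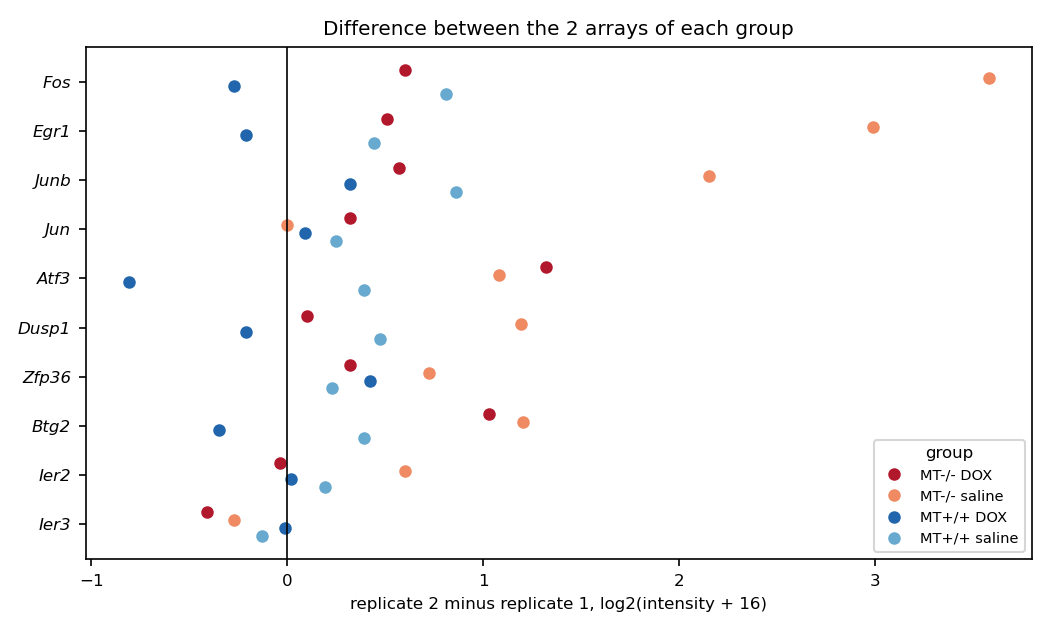
Replicate 2 minus replicate 1 in log2(intensity + 16), 1 point per gene and group, for MT-/- DOX (dark red), MT-/- saline (orange), MT+/+ DOX (dark blue) and MT+/+ saline (light blue). Junb and Zfp36 lie above 0 in all 4 groups, and the MT-/- saline points of Fos, Egr1 and Junb lie at 3.58, 2.99 and 2.15.

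Both calls depended on the arrays kept. Without MT-/- saline replicate 2, where 5.48% of probe sets were called, Junb kept its call at 0.58 ± 0.11 (adjusted p 0.0323) and Zfp36 lost it (0.32 ± 0.10, adjusted p 0.0903). Zfp36 also lost it without the other MT-/- saline array and without either MT+/+ DOX array (adjusted p 0.0837 to 0.0935). Without either MT+/+ saline array or either MT+/+ DOX array Junb lost its call (adjusted p 0.0589 to 0.0798). Fos (1.18 ± 0.48, adjusted p 0.123), Egr1 (0.93 ± 0.41, adjusted p 0.148), Btg2 (0.57 ± 0.21, adjusted p 0.101) and Atf3 (0.50 ± 0.28, adjusted p 0.25) were not called. Without either MT+/+ DOX array Btg2 (0.87, adjusted p 0.0436 to 0.044) and Atf3 (0.93, adjusted p 0.0435 to 0.044) were called. In the MT+/+ DOX pair 4 of these differed the other way, with -0.27 for Fos, -0.21 for Egr1, -0.35 for Btg2 and -0.81 for Atf3. Ier3 was the member with a negative average, -0.21 ± 0.08 (adjusted p 0.123). The beta-actin 3' to 5' ratio was also higher on replicate 2 than on replicate 1 in every group: 1.18 and 0.913 in MT-/- DOX, 1.23 and 1.14 in MT-/- saline, 1.05 and 0.948 in MT+/+ DOX, and 1.24 and 1.15 in MT+/+ saline. Its part in the differences was not tested.

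A list of 42 other immediate early genes, 38 of them tested, was set beside the members. After DOX, averaged over genotypes, 10 of 38 rose and 0 fell, against 7.03% of all probe sets higher, and the median was 0.30 log2, against -0.01 over all genes. The list was chosen with earlier results of these data known, so its counts are descriptive and test nothing. Leaving out 1 array gave 7 to 15 rises and 0 falls, and the replicate block 17 rises. Ccn2, a matricellular factor of fibrosis, rose by 2.64 ± 0.37 log2 (6.25-fold, adjusted p 0.00303 by limma). Its signals were 2549 and 11151 in MT-/- DOX hearts, against 463 and 668 in MT-/- saline hearts, and 1910 and 1644 in MT+/+ DOX hearts, against 375 and 430 in MT+/+ saline hearts. The clock gene Per1 rose by 1.19 ± 0.15 (adjusted p 0.0020), Nfkbia, the NF-kappaB inhibitor, by 1.07 ± 0.16 (adjusted p 0.00372), Ppp1r15a, which helps restart translation after stress, by 0.99 ± 0.17 (adjusted p 0.00631) and Myc by 0.43 ± 0.07 (adjusted p 0.0072). For these 5 genes every DOX array had a higher deposited signal than every saline array. Cebpd, Csrnp1, Cebpb, Maff and Mcl1 also rose.

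**Figure D5:**
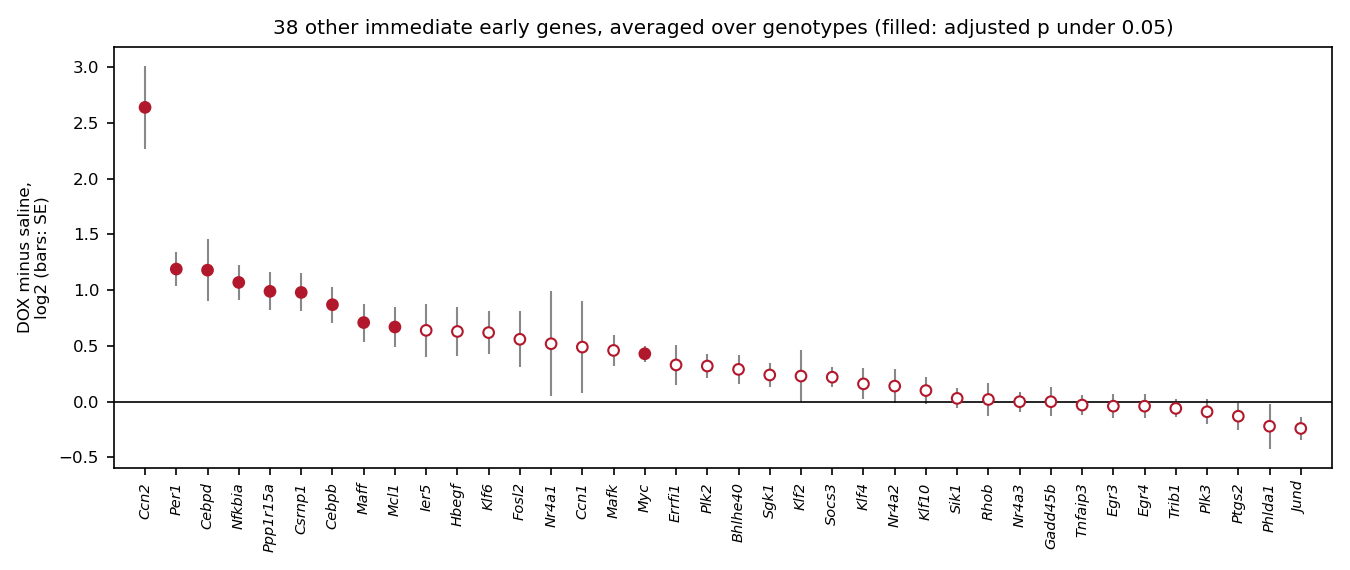
DOX minus saline averaged over genotypes, in log2(intensity + 16), for the 38 other immediate early genes tested, in order of size, with bars for the standard error of the limma fit. Filled points have adjusted p under 0.05; 10 genes are filled, all above 0, with Ccn2 highest at 2.64.

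Nr4a1, the immediate early nuclear receptor gene named above, had 573 and 782 in MT-/- DOX hearts, against 297 and 2105 in MT-/- saline hearts, and 879 and 571 in MT+/+ DOX hearts, against 270 and 287 in MT+/+ saline hearts. Its averaged DOX difference was 0.52 ± 0.47 log2 (adjusted p 0.552 by limma), and 1.17 without MT-/- saline replicate 2. The value without the other array of that pair is not given here. Its highest signal was that of the same array as for Fos and Egr1. In the MT-/- saline pair it was the only 1 of the 38 tested genes to exceed 1 log2 unit, at 2.63, and the list's median was 0.14, against 0 over all genes. Within a genotype, 6 of 38 rose in MT-/-, against 6.21% of all probe sets called in either direction, and 2 in MT+/+, against 2.48%. With the replicate block 17 rose in MT-/-, against 16.9% called in either direction, and 12 in MT+/+, against 11.1% in either direction. Over the fits without 1 array the MT-/- count was 0 to 11 (0 without either MT-/- saline array, 1 without MT-/- DOX replicate 2 and 11 without MT-/- DOX replicate 1), and the MT+/+ count 0 to 5. By replicate number 11 of 38 were higher on replicate 2, against 7.87% of all probe sets, and 1 was lower, with 2 to 7 higher when 1 array was left out.

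Of 24 tested genes on the routes that signal to these promoters, 2 rose and 4 fell after DOX (4 and 5 with the replicate block), against 7.03% of all probe sets higher and 13.9% called in either direction, with a median of -0.14 log2. Leaving out 1 array gave 1 to 2 rises and 2 to 5 falls. Elk1 (-0.70 ± 0.09, adjusted p 0.00205 by limma), which acts with SRF at CArG boxes, and Elk3 (-0.71 ± 0.13, adjusted p 0.0105), its relative, fell. Crem (-0.70 ± 0.11, adjusted p 0.00529), a CRE-binding factor, and Mapk14 (-0.50 ± 0.10, adjusted p 0.0149), the stress kinase p38 alpha, also fell, while Mrtfb, an SRF coactivator, rose by 1.04 ± 0.17 (adjusted p 0.00524). Of 16 tested paralogues of the feedback members 1 rose (Dusp4, 0.57 ± 0.14, adjusted p 0.0263) and 1 fell (Dusp6, -0.60 ± 0.15, adjusted p 0.0321), both MAP kinase phosphatases, with a median of -0.10, a share near that of all probe sets. Leaving out 1 array gave 0 to 2 rises and 0 to 2 falls. The replicate block gave 2 rises and 4 falls, against 27.1% of all probe sets called. Ier5l (-0.30), Dusp8 (-0.26) and Ier5 (0.64) missed the threshold without the block and passed it with the block (adjusted p 0.0235, 0.0365 and 0.0308 in that order). Of 18 tested AP-1 and CREB type bZIP genes 1 rose (Maff, 0.71 ± 0.17, adjusted p 0.026) and 2 fell (Crem and Atf5, -0.82 ± 0.14, adjusted p 0.00657), with a median of 0.05, again near the share of all probe sets. Leaving out 1 array gave 0 to 2 rises and 2 falls, and the block 4 rises and 3 falls. Mafk (0.46) and Maf (-0.28) did the same (adjusted p with the block 0.0108 and 0.0278 in that order).

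Of 18 glucocorticoid-induced genes, some of which are also immediate early genes, 13 rose and 0 fell, against 7.03% of all probe sets higher, with a median of 1.14 log2. This list too was chosen with earlier results of these data known, so its counts test nothing. Leaving out 1 array gave 11 to 13 rises. Lcn2 rose by 2.54 ± 0.19 (adjusted p 1.92e-04 by limma) and Fkbp5 by 2.20 ± 0.19 (adjusted p 3.09e-04). Mt1 rose by 1.18 ± 0.09 (adjusted p 1.92e-04 by limma) and Ddit4 by 1.11 ± 0.14 (adjusted p 0.0018). Per1, Nfkbia, Cebpd, Sgk1 and Errfi1 are on this list and on that of other immediate early genes, so their values count in both. The average for Lcn2 joins 3.90 ± 0.27 in MT-/- and 1.19 ± 0.27 in MT+/+. Its interaction of 2.71 ± 0.38 had an adjusted p of 0.901 by limma, and 0.0222 with the replicate block. Cell markers moved with the treatment as well, in a comparison where 6.84% of all probe sets were called lower and 7.03% higher. The macrophage markers summed to 4570 to 6280 on DOX arrays, against 8548 to 10725 on saline arrays, and 8 of 8 fell. The fibroblast markers summed to 10071 to 11439 on DOX arrays, against 15954 to 20140 on saline arrays, and 5 of 8 fell. The neutrophil markers summed to 3997 and 3234 in MT-/- DOX hearts, against 1013 and 980 in MT-/- saline hearts, and to 1332 and 1286 in MT+/+ DOX hearts, against 1238 and 1747 in MT+/+ saline hearts. Of these markers 3 of 7 rose on average over genotypes. The smooth muscle and pericyte markers summed to 7932 to 9882 on DOX arrays, against 10728 to 13968 on saline arrays, and 2 of 6 fell. The red cell markers summed to 300 to 335 on DOX arrays, against 659 to 1475 on saline arrays, and 1 of 4 fell. The endothelial markers summed to 4087 to 5497 on DOX arrays, against 4857 to 6218 on saline arrays, overlapping, and 2 of 8 fell. The cardiomyocyte markers summed to 104905 to 110923 on DOX arrays, against 113255 to 117501 on saline arrays, and 4 of 8 fell. The part of these changes in the rises of Zfp36, Ier3 and Btg2 was not tested.

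Genes with the profile most like a member's were named by the smallest mean absolute difference over the 8 arrays, in log2 units after centring each profile. Nr4a1 was nearest to Fos (0.40), followed by Hif1a (0.63). Hspa1b (0.41) and Hspa1a (0.44) were nearest to Egr1, and Abhd1 (0.28) and Fosl2 (0.30) to Junb. Siah1a (0.11) and Txlng (0.12) were nearest to Zfp36, and Bcl2l11 (0.18) and Acot1 (0.21) to Btg2. Otud1 (0.24) and Ofd1 (0.28) were nearest to Atf3, Gata6 (0.09) and Prpsap2 (0.10) to Ier3, and Ptger4 (0.10) and Thra (0.18) to Dusp1. All of these profiles share the same 8 arrays, and those of Fos, Egr1 and Junb are set largely by MT-/- saline replicate 2.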

How the data were processed

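The data come from 8 one-colour Affymetrix arrays of mouse heart RNA. The authors deposited, for each array, a linear intensity (signal) per probe set, made with GCOS 1.4 per the submitters' processing notes. How signals were summarized and scaled was not given in the sources used here. Per the labels' protocols, Trizol-extracted RNA (2 µg) was turned into biotin-labelled cRNA.

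Of 45101 probe sets, 64 controls were left out. Symbols came from the platform's annotation: 34958 probe sets had 1 symbol, 932 several and 9211 none, and only those with 1 were named. Trimmed means (2% off each end) of the arrays differed by 8.08%, above a limit of 5%, so arrays were quantile-normalized and taken as log2(intensity + 16), a scale that understates changes of dim probe sets. A probe set was kept where 2 or more of the 8 arrays reached their own median signal. The fits used limma 3.58.1 (R 4.3.3) with 4 group means and eBayes with a trend; p-values are two-sided, with Benjamini-Hochberg adjustment and a threshold of 0.05. The averaged DOX fit was also run on simulated arrays with independent noise. These lacked the correlation between same-numbered arrays given below, so that run does not cover it. With 2 arrays against 2, the smallest exact permutation p is 0.333, so no such test was made. The number of arrays limits the precision.

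The brightest tested probe set stood for a gene. Named were the members, up to 5 genes per list with the smallest p in the averaged DOX comparison, and the 2 genes most like each member that ranged over more than 1 log2 unit. Members and lists were chosen with earlier results of these data known. Deviations from the group means correlated at 0.36 to 0.54 between same-numbered arrays in all 6 pairs of groups over 24751 probe sets. The main fits of treatment and genotype used the group means only and left this pairing out. The replicate block is the fit that included the pairing. That pairing comes from the data, as the labels do not say what a number shares. Alternatives were other scalings, pseudocounts, filters, variance models, probe set means, a replicate block, fewer groups in the fit and leaving out each array. Promoters came from RefSeq (GRCm38.p6).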

Additional observations from a re-analysis of the deposited data

Results flagged for a closer look

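Within 24 sets of 4 arrays that share a treatment (12 probe sets under saline and 12 under DOX), 1 value stood far from the others by Dixon's test: Egr1 over the 4 saline arrays, where MT-/- saline replicate 2 lay above the rest with a gap of 0.851 of the whole range, past the critical value for 4 values. Chance marks about 1 in 20 such groups. Fos, which had the larger difference within that pair, did not pass this test.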

How the results depend on the processing

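With the replicate block, the calls rose to 4 members and 6702 probe sets for DOX averaged, 2 and 4188 in MT-/-, 2 and 2740 in MT+/+, and to 1202 probe sets for genotype averaged, 209 under saline, 383 under DOX and 1 for the interaction; beyond Atf3, Btg2 and Zfp36 as given above, the block changed no other call of a member. Without it the probe sets were 3433 for DOX averaged, 1538 in MT-/-, 613 in MT+/+, 224 for genotype averaged, 46 under saline, 70 under DOX and 0 for the interaction. With only the 4 arrays compared, MT-/- gave 0 members and 997 probe sets, and genotype under DOX gave 37 probe sets. MT+/+ gave 3 members (Fos, Zfp36 and Btg2) in that setting. Without the filter 1 member was called for DOX averaged. The number of probe sets called is not given here for either of these fits, so their member counts cannot be set against a share. Averaging a gene's probe sets, which tests fewer features, gave 143 for genotype averaged, 23 under saline and 1836 for the replicate number. The averaged DOX value of Fos turned to -0.01 with the deposited scaling and -0.10 with a pseudocount of 64. Leaving out 1 array each gave 1 to 3 members and 1713 to 3829 probe sets for DOX averaged, 0 to 3 and 383 to 1994 in MT-/-, 0 members and 46 to 771 in MT+/+, 0 to 2 and 88 to 194 for genotype averaged, 0 to 2 and 15 to 50 under saline, 0 and 23 to 62 under DOX, 0 and 0 to 1 for the interaction, and 1 to 2 and 675 to 2738 for the replicate number. Across these fits the averaged DOX values ran from -0.85 to 0.93 for Fos, -0.16 to 0.90 for Junb, -1.34 to 0.15 for Egr1 and -0.39 to 0.21 for Dusp1. In MT-/- the values ran from -3.06 to 0.51 for Fos, -0.02 to 0.29 for Jun, -1.12 to 1.01 for Junb, -2.83 to 0.17 for Egr1, -0.04 to 1.29 for Atf3, -0.05 to 1.14 for Btg2 and -1.19 to 0.00 for Dusp1. In MT+/+ Egr1 ran from -0.08 to 0.36. Apart from the fits with fewer arrays or features, the cause of these shifts was not tested. Fos was below its array's median on 3 of 8 arrays.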
